A study of Mus musculus with 18 samples.

Results

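The transport and gating machinery of the primary cilium was followed through 46 mouse genes, chosen by name out of 55401 counted genes, in RNA-seq libraries of bile duct cells. The members are 20 transport genes (12 of the IFT-B complex, 3 of the IFT-A complex and 5 ciliary motor genes), 10 BBSome genes (7 subunits, the chaperonin-like Bbs10 and Bbs12, and the small GTPase gene Arl6), 10 transition zone genes, and 6 genes of the ciliary membrane and the inversin compartment. All 46 were found by symbol and had a count in each of the 18 libraries.

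The study sequenced polyA RNA of primary cholangiocytes, the epithelial cells of the bile ducts, from PLD and WT mice. PLD stands for polycystic liver disease, in which cysts grow from these cells. The 6 groups hold 3 libraries each: PLD mice given CPTH6, PLD mice given ML324, untreated PLD mice and WT mice 2 months after tamoxifen, and untreated PLD mice and WT mice 1 month after tamoxifen. The titles of the treated libraries give 3 months. Both are known inhibitors of chromatin enzymes: CPTH6 acts on the histone acetyltransferases Kat2a and Kat2b, while ML324 blocks demethylases of the KDM4 family. Tamoxifen was used in both genotypes, and the labels name neither the gene inactivated in PLD mice nor the driver of recombination, nor dose, age or strain. Cells were released from the dissected biliary tree by enzymes and caught with beads carrying an antibody to EpCAM, an epithelial surface protein. PLD cells and WT cells below mean these preparations as a whole, which also held marker RNA of other cell types. Nothing in the labels says that replicates come from separate mice, so the p-values measure the spread between these libraries, which may be technical.

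A primary cilium is a single hair-like extension of the cell that, in cholangiocytes, reaches into the bile duct and senses flow, osmolality and bile components. Trains of IFT-B and IFT-A carry cargo along it, driven outward by the kinesin motor of Kif3a, Kif3b and Kifap3 and back by the dynein of Dync2h1 and Dync2li1, while the BBSome moves membrane proteins out. The transition zone at its base acts as a gate, and the inversin compartment is the stretch of membrane just beyond it. Defects in many of these genes cause ciliopathies, a group of inherited disorders that include cystic kidneys and malformed bile ducts.

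Promoter sequences were read for the members because X-boxes, the sites bound by RFX transcription factors, are known from many ciliary genes. RefSeq promoters (build GRCm38.p6, from 250 bases before to 50 bases after the start) were at hand for 40 of the 46 genes, with 46 entries. The X-box half-site GTTGCC, on either strand, lay in 18 of the 46 entries (39.1%), against 12.5% of all 32851 promoters of the same length. The longer relaxed X-box, which reads GTTNCC, then NNN, then GNAAC and can overlap the half-site at either end, lay in 4 entries (8.7%), those of Ahi1, B9d2, Bbs7 and Mks1, all of which also held the half-site, against 0.804% of all promoters. The stricter form GTTNCC, then ATGG, then NAAC, lay in 0 member entries, against 0.128% of all promoters. A match is a description of the letters and not a tested binding site. The 250 bases before the start of 6 members that changed in the comparisons below are given 5′ to 3′, with the half-site or relaxed site in capitals; Nek8, which carries none in this window, is shown because its RNA changed most.
Nek8, chr11:78176667-78176916, minus strand: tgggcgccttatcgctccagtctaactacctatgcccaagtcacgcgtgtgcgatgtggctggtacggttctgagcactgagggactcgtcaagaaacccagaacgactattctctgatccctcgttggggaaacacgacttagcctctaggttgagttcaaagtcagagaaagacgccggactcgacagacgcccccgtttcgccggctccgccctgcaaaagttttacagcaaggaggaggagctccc
Ift140, chr17:25015836-25016085, plus strand: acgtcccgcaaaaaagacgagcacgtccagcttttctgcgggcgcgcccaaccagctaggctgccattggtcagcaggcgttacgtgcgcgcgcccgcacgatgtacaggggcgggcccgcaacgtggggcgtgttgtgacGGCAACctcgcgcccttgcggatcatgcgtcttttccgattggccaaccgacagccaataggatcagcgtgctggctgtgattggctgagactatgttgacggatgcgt
Kif3a, chr11:53567119-53567368, plus strand: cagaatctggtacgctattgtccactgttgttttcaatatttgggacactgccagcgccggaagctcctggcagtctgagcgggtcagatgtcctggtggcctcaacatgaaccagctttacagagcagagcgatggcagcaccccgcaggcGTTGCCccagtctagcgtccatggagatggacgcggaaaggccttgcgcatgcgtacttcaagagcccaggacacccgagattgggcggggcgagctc
Bbs7, chr3:36613390-36613639, minus strand: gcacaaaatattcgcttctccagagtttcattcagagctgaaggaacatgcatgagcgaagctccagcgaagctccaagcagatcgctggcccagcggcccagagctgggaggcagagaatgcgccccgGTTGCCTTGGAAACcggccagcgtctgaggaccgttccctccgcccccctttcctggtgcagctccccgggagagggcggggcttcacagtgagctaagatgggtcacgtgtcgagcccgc
Arl13b, chr16:62847041-62847290, minus strand: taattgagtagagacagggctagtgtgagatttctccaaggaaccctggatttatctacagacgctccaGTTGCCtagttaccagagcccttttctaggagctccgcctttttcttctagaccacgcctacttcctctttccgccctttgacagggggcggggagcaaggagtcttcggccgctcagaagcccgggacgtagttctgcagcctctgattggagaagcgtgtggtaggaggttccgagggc
Traf3ip1, chr1:91494418-91494667, plus strand: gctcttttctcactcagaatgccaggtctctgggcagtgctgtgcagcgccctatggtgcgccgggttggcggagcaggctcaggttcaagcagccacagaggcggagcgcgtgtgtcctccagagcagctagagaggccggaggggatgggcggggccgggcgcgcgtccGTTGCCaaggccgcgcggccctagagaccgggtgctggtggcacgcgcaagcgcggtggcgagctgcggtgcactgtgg
The relaxed match of Bbs7 begins 121 bases before the start, and the half-sites of Arl13b, Ift140, Kif3a and Traf3ip1 begin 181, 109, 98 and 79 bases before it. Ift140 carries the half-site on the other strand, where it reads GGCAAC.

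The members were expressed at moderate levels. Per kilobase of counted exon, the mean over all libraries ran from 0.351 CPM (counts scaled to the effective size of each library) per kb for Bbs10 to 16.5 CPM per kb for Ift20, an IFT-B subunit that also works at the Golgi. Transport and ciliary membrane genes stood higher than BBSome and transition zone genes on this scale. In untreated PLD cells at 2 months the class median was 6.11 CPM per kb for transport, 6.91 for the membrane and inversin genes, 2.10 for the transition zone and 2.29 for the BBSome. WT cells at 2 months had medians of 5.21, 5.67, 1.70 and 1.92 CPM per kb in the same class order. Bbs10, the lowest member, had 0.957, 0.807 and 0.777 CPM in the CPTH6 libraries, 0.342, 0.793 and 0.849 CPM with ML324, 1.57, 0.467 and 0.445 CPM in untreated PLD cells at 2 months and 1.39, 1.25 and 1.42 CPM in WT cells at 2 months. In 44 of the 46 members every library reached 1 CPM, and the exceptions were Bbs10 and Bbs12.

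The members had a narrower range over the 6 groups than genes in general at the median. The ratio between the highest and the lowest group mean had a median of 1.56 over the members, against 1.94 over the 14913 genes with a mean of at least 1 CPM, and it reached 1.5 in 25 members. It reached 2 in 10 members, against 48.2% of those genes. Nek8 had the widest range of group means, 5.38-fold, followed by the low-count Bbs12 with 4.81-fold and Bbs7 with 2.75-fold. WT cells at 2 months held the lowest group mean of 25 members, and CPTH6-treated PLD cells the highest of 16. These counts, like that at 1.5-fold, were not made over all genes.

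**Figure D1:**
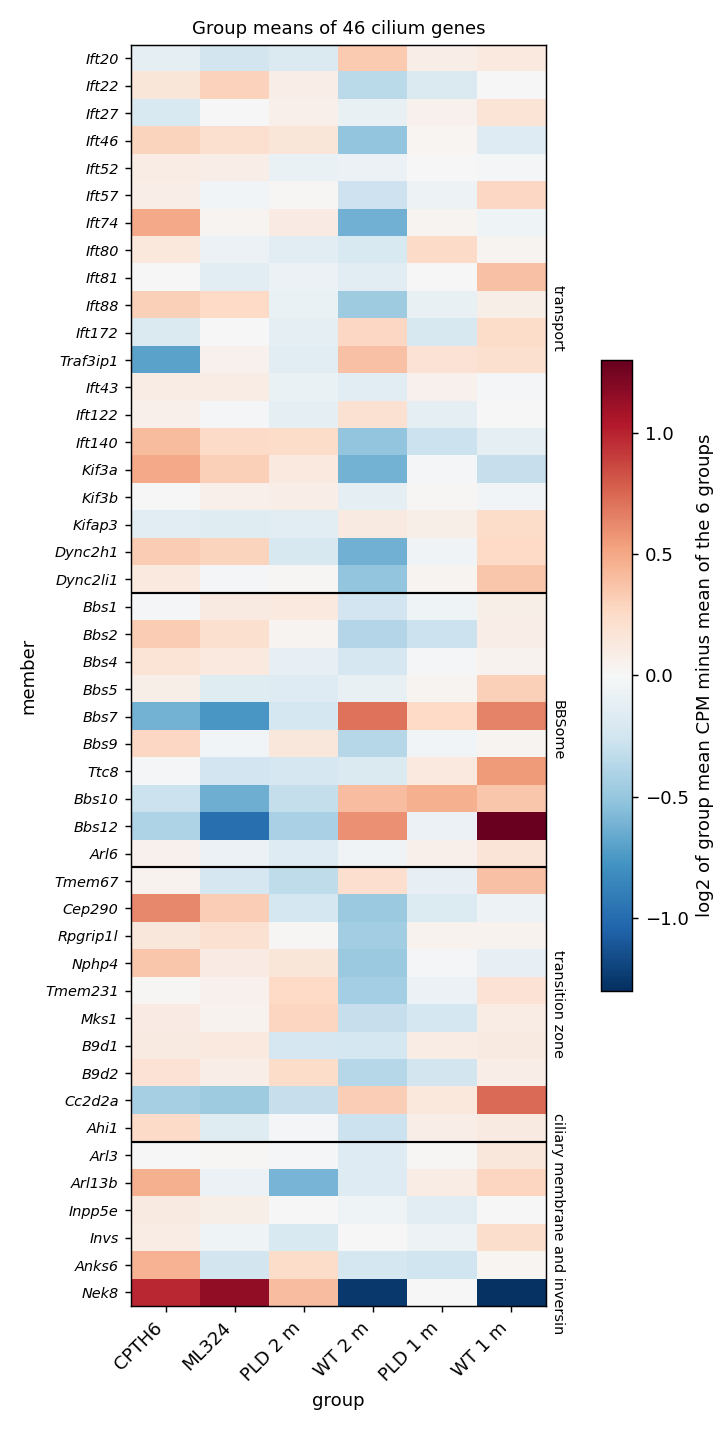
Colours show, for each of the 46 members (rows, by class), the log2 of the group mean CPM minus the mean of the 6 groups (columns; 3 libraries each). Nek8 runs from the lowest values in both WT groups to the highest in the treated groups. WT cells at 2 months hold the lowest mean of 25 members, a count not made over all genes.

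Marker RNA of bile duct cells and of other cell types differed between groups, and the values are given here to be read beside the comparisons of members. Libraries held 16345740 to 29277311 counts. All 15 cholangiocyte markers had counts in every library, and their mean log2 CPM was 9.31 ± 0.05 in untreated PLD and 7.58 ± 0.36 in WT at 2 months, and 9.01 ± 0.25 in PLD and 8.07 ± 0.57 in WT at 1 month (SD, n = 3 each). Their sums were 22440 to 23530 CPM in PLD and 6748 to 9961 CPM in WT at 2 months. The 15 endothelial markers, none at 0 in any library, summed to 794 to 1710 CPM in PLD and 7966 to 14560 CPM in WT at 2 months, and to 2749 to 5305 CPM in PLD and 2445 to 6684 CPM in WT at 1 month. Treated libraries held less of them, 234 to 387 CPM with CPTH6 and 164 to 785 CPM with ML324. The 15 stellate cell and fibroblast markers, also never at 0, summed to 403 to 485 CPM with CPTH6 and 314 to 1075 CPM with ML324, against 3542 to 8080 CPM in untreated PLD cells at 2 months. They summed to 6103 to 13020 CPM in WT at 2 months, and to 10240 to 13400 CPM in PLD and 2600 to 16610 CPM in WT at 1 month. WT replicate 3 at 1 month stood apart, with a cholangiocyte marker mean of 8.72 against 7.78 and 7.70 in the other WT libraries of that time. Its stellate cell and fibroblast markers summed to 2600 CPM, against 15060 and 16610 CPM in those libraries. WT replicate 1 at 2 months had counts in 40039 genes, against 22780 to 30332 in the other libraries. ML324 replicate 2 had an endothelial marker mean of 5.31 on the log2 CPM scale, against 2.79 and 2.95 in the other ML324 libraries. The 12 hepatocyte markers summed to 2581 to 5675 CPM in PLD and 657 to 964 CPM in WT at 2 months, with at most 2 at 0 in a library. Their mean log2 CPM was 3.72 ± 0.33 in PLD and 3.50 ± 0.55 in WT (SD, n = 3 each). Of these 12 markers, 6 were higher and 6 lower in PLD. The 12 macrophage markers summed to 872 to 1842 CPM in PLD and 786 to 1512 CPM in WT at 2 months, with 4 higher and 8 lower in PLD. At 1 month the macrophage markers summed to 566 to 849 CPM in PLD and 1119 to 2158 CPM in WT, with 1 higher and 11 lower in PLD. The hepatocyte markers summed to 2357 to 3718 CPM in PLD and 541 to 2212 CPM in WT at 1 month, with 6 higher and 6 lower. In bulk RNA, fewer cells of a type and less RNA per cell cannot be told apart.

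**Figure D2:**
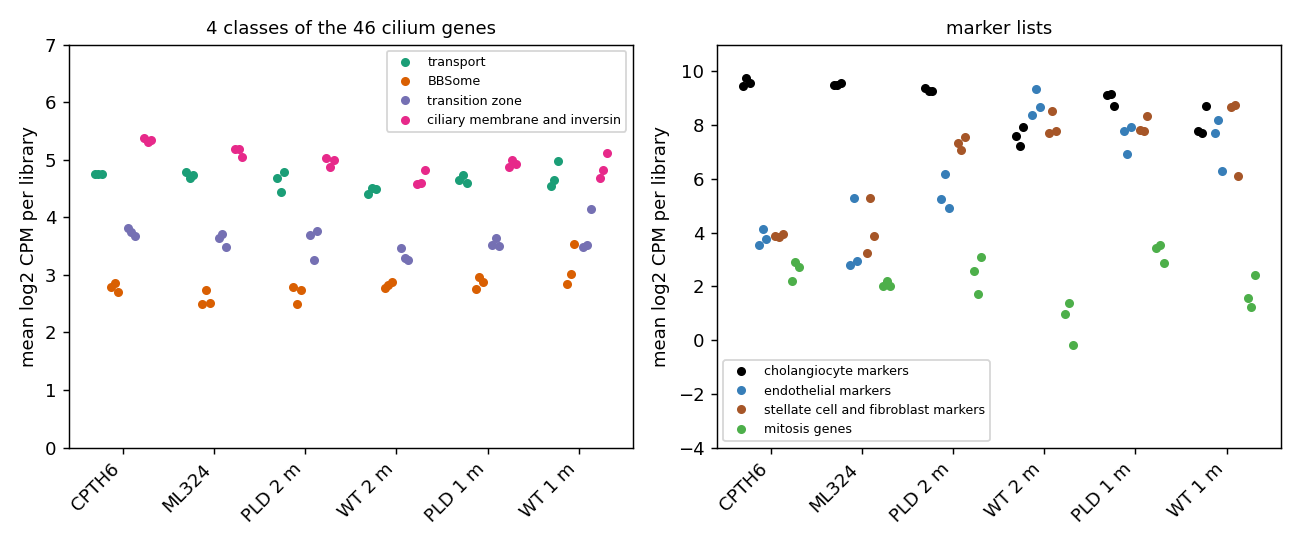
Points are libraries (3 per group) and the y axis is the mean log2 CPM over the genes of a class (left) or of a marker list (right). The 4 member classes stay in the same order in all groups, while endothelial markers average 5.45 in untreated PLD and 8.80 in WT at 2 months.

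At 2 months after tamoxifen, PLD and WT cholangiocyte libraries differed in 13 of the 46 members, and the changes ran both ways: 7 members rose and 6 fell in PLD. Differences within cholangiocytes and differences in the mix of cells cannot be told apart here. Nek8, a kinase of the inversin compartment that is mutated in inherited cystic kidney disease, rose most, 3.11-fold. Subunits of the same machine moved in opposite directions, with Ift46 and Ift74 higher and Ift20, Ift172 and Traf3ip1 lower within IFT-B, Bbs9 higher and Bbs7 lower within the BBSome, and B9d2 higher and Cc2d2a lower within the transition zone. The share of members called was 28.3%, against 40% of all 17749 genes tested (edgeR quasi-likelihood test, Benjamini-Hochberg adjusted p under 0.05). Higher calls made up 15.2% of members, against 19.7% of genes tested, and lower calls 13%, against 20.3%. The median change over the members was 0.13 on the log2 scale, against -0.03 over all genes tested. The median size of change regardless of sign was 0.40 over the members, against 0.54 over all genes.

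**Figure D3:**
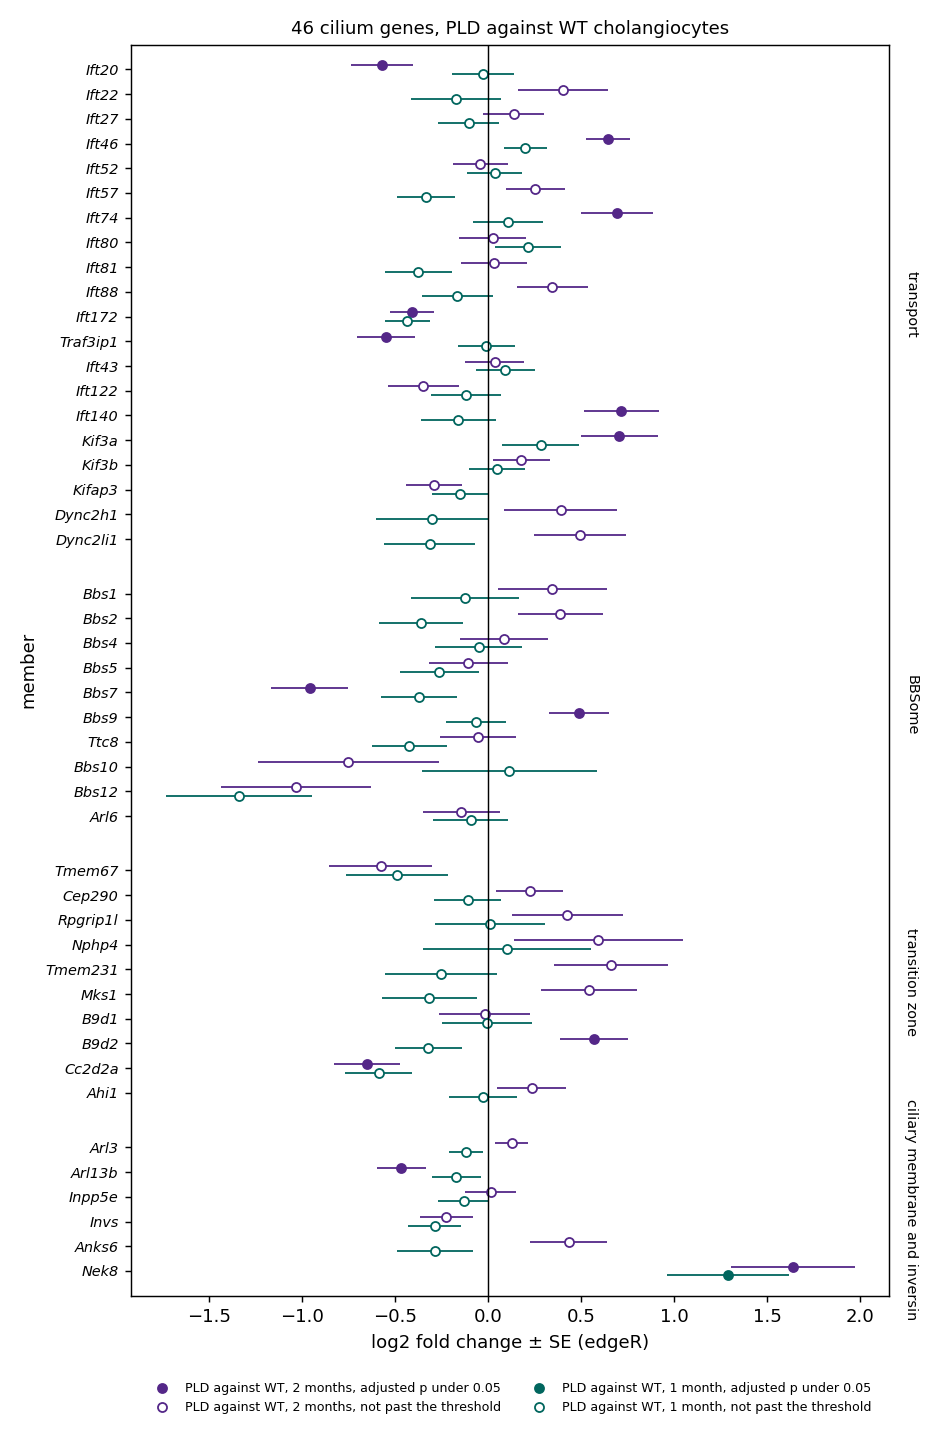
Points are log2 fold changes of PLD over WT with SE bars for the 46 members, at 2 months (upper point of each pair) and 1 month (lower point), filled where the adjusted p is under 0.05. At 2 months 13 points are filled, 7 to the right of 0 and 6 to the left, and at 1 month only Nek8 is filled.

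Among the IFT-B genes, 2 rose, 3 fell and the other 7 did not pass the test. Ift46, a core subunit of IFT-B, had 42.1, 41.8 and 41.6 CPM in PLD cells, against 22.1, 26.0 and 30.7 CPM in WT cells at 2 months. All PLD libraries lay above all WT libraries, and the log2 fold change was 0.64 ± 0.12 (SE, adjusted p = 0.00177, edgeR). Ift74, which with Ift81 binds tubulin cargo, had 15.3, 14.6 and 15.6 CPM in PLD cells, against 9.48, 9.17 and 8.86 CPM in WT cells. The groups did not overlap, and the log2 fold change was 0.69 ± 0.19 (adjusted p = 0.0153, edgeR), while its partner Ift81 changed by 0.03 ± 0.18 (adjusted p = 0.908, edgeR). Ift20 fell, with 21.0, 19.7 and 24.5 CPM in PLD cells against 32.3, 35.4 and 27.0 CPM in WT cells. Its log2 fold change was -0.57 ± 0.17 (adjusted p = 0.0198, edgeR), and the groups did not overlap. Per kilobase, the IFT-B subunits spanned 1.78 CPM per kb (Ift80) to 14.3 CPM per kb (Ift20) in PLD cells and 1.71 (Ift80) to 20.7 CPM per kb (Ift20) in WT cells. Ift172, a large peripheral subunit of IFT-B, fell, with 45.3, 41.1 and 47.5 CPM in PLD cells against 54.5, 67.9 and 51.6 CPM in WT cells, groups that did not overlap. Its log2 fold change was -0.41 ± 0.12 (adjusted p = 0.0196, edgeR). Traf3ip1, which encodes the subunit also called IFT54, had 7.92, 10.2 and 10.3 CPM in PLD cells, against 13.1, 13.9 and 13.7 CPM in WT cells. All PLD libraries lay below all WT libraries, with a log2 fold change of -0.55 ± 0.16 (adjusted p = 0.0173, edgeR).

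In IFT-A and the motors, 1 gene of each rose. Ift140, an IFT-A core subunit whose mutation causes skeletal and kidney ciliopathy, had 34.4, 35.5 and 34.6 CPM in PLD cells, against 20.7, 22.0 and 19.5 CPM in WT cells at 2 months. The groups lay well apart, with a log2 fold change of 0.72 ± 0.20 (adjusted p = 0.0164, edgeR). Kif3a, a motor subunit of the outward kinesin, averaged 45.7 ± 5.6 CPM in PLD cells and 27.4 ± 0.9 CPM in WT cells (SD, n = 3 each). It rose by 0.71 ± 0.21 on the log2 scale (adjusted p = 0.0207, edgeR), whereas its partners Kif3b and Kifap3 had log2 fold changes of 0.18 ± 0.15 and -0.29 ± 0.15 that did not pass the test. The dynein genes Dync2h1 and Dync2li1 had 0.39 ± 0.30 and 0.49 ± 0.25, and neither passed.

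In the BBSome, Bbs7 and Bbs9, both of which encode propeller-bearing subunits, moved against each other. Bbs7 had 4.37, 3.38 and 4.15 CPM in PLD cells, against 7.49, 7.97 and 7.19 CPM in WT cells at 2 months. Every PLD library lay far below every WT library, and the log2 fold change was -0.96 ± 0.21 (adjusted p = 0.00456, edgeR). Bbs9 had 19.9, 23.2 and 22.2 CPM in PLD cells, against 12.8, 18.3 and 14.5 CPM in WT cells. The groups did not overlap, with a log2 fold change of 0.49 ± 0.16 (adjusted p = 0.0348, edgeR). The other 5 subunits had log2 fold changes from -0.11 (Bbs5) to 0.39 (Bbs2), none past the test. Bbs10 and Bbs12, which help assemble the BBSome, had -0.75 ± 0.49 and -1.03 ± 0.40 at very low counts, and neither passed.

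In the transition zone, Cc2d2a fell and B9d2 rose, and 8 genes did not pass. Cc2d2a, a gate protein of the Meckel syndrome module, had 22.7, 21.3 and 24.1 CPM in PLD cells, against 28.4, 35.1 and 41.6 CPM in WT cells at 2 months. The PLD libraries lay below all WT libraries, with a log2 fold change of -0.65 ± 0.18 (adjusted p = 0.0147, edgeR). B9d2, a partner of B9d1 and Mks1 in the same module, had 10.6, 11 and 12.2 CPM in PLD cells, against 9.16, 6.11 and 6.93 CPM in WT cells. Its groups did not overlap, and the log2 fold change was 0.57 ± 0.18 (adjusted p = 0.028, edgeR). Tmem231 and Mks1 were also higher in all PLD libraries than in all WT libraries, with log2 fold changes of 0.66 ± 0.30 and 0.54 ± 0.26 that did not pass.

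Of the membrane and inversin genes, Nek8 rose, Arl13b fell and 4 did not pass. Nek8 (chr11:78166106-78176675 in mm10, minus strand, sharing no exon base with another gene) had 61.8, 58.9 and 57.5 CPM in PLD cells, against 15.2, 12.4 and 28.9 CPM in WT cells at 2 months. The lowest PLD library was well above the highest WT library, with a log2 fold change of 1.64 ± 0.33 (adjusted p = 0.00319, edgeR). Within WT, Nek8 was highest in replicate 3, whose cholangiocyte marker mean of 7.92 was also the highest, against 7.62 and 7.21 in the other WT libraries. Its partners in the compartment changed less: Anks6, which binds and activates Nek8, had 0.43 ± 0.21, and Invs, the scaffold, had -0.22 ± 0.14, neither past the test. Arl13b, the GTPase that marks the ciliary membrane and activates Arl3, had 30.1, 27.8 and 29.2 CPM in PLD cells, against 32.0, 39.3 and 46.7 CPM in WT cells. The PLD libraries lay below the WT libraries by a narrow margin, with a log2 fold change of -0.47 ± 0.13 (adjusted p = 0.0184, edgeR).

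The 33 members that did not pass at 2 months ranged from -1.03 to 0.66 on the log2 scale, and 12 of them had groups that did not overlap. With the 13 called members this made 25 of 46 (54.3%), against 54.9% of all genes tested. Of the called members, Ift46, Ift74, Bbs7 and Nek8 passed in all 12 fits that left out 1 library. Ift140 missed in 1 fit, without WT replicate 3 at 2 months (adjusted p = 0.0516, edgeR), and the other 8 missed in 2 to 5 fits, with adjusted p up to 0.122. The number of members called was 8 without PLD replicate 1 at 2 months, 7 without WT replicate 2 or WT replicate 3 at 2 months, and 20 without WT replicate 3 at 1 month, which shares the estimate of spread. All genes moved with them: the share called was 29% without PLD replicate 1, 28.9% and 34.3% without WT replicate 2 or WT replicate 3 at 2 months, and 46.6% without WT replicate 3 at 1 month. With the endothelial marker mean as a covariate, 0 members passed, against 1.5% of all genes. On the log2 CPM scale that mean was 4.91 to 6.18 in PLD and 8.36 to 9.36 in WT at 2 months. The covariate thus separated the genotypes fully at this time, and the fit cannot tell its part from that of genotype. Under that fit Nek8 had 0.43 (adjusted p = 0.75) and Ift46 had 0.55 (adjusted p = 0.3), while Ift74, Kif3a and Ift140 changed sign.

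At 1 month, Nek8 alone of the 46 members passed the test between PLD and WT (2.17%, against 5.03% of the 17749 genes tested, 3% higher and 2.02% lower). It had 48.3, 48.6 and 38.4 CPM in PLD cells, against 12.6, 15.4 and 27.6 CPM in WT cells. All PLD libraries lay above all WT libraries, by 1.29 ± 0.33 on the log2 scale or 2.45-fold (adjusted p = 0.0486, edgeR). Other tools and settings moved the count. DESeq2 called Bbs12, Cc2d2a and Ift172 as lower beside Nek8, and 2157 of all genes, against 892 in the main fit. The replicate block added Cc2d2a (599 of all genes called) and the endothelial covariate added Ift172 (2107 of all genes). A fit of only the compared groups called 0 members and 29 of all genes. The Nek8 call was lost in 10 of the 12 fits that left out 1 library, with log2 fold changes of 1.06 to 1.71 and adjusted p up to 0.179, and it passed only without WT replicate 3 at 1 month (0.00401) or without WT replicate 3 at 2 months. As at 2 months, Nek8 was highest in the WT library with the highest cholangiocyte marker mean. Among the CPTH6 libraries it was highest (108 CPM) in replicate 1, which had the lowest such mean (9.48), and a link was not tested. With the endothelial covariate Nek8 had 1.41 at 1 month (adjusted p = 0.0134, edgeR).

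The other 45 members had log2 fold changes from -1.34 (Bbs12) to 0.28 (Kif3a) at 1 month. Groups did not overlap in 7 members (15.2%), against 26.4% of all genes tested. Cc2d2a, which fell at 2 months, had 27.0, 28.4 and 37.3 CPM in PLD cells and 37.5, 48.4 and 54.2 CPM in WT cells at 1 month. The groups again did not overlap, and -0.59 ± 0.18 did not pass in edgeR (adjusted p = 0.0779), while it passed in DESeq2 (0.0311) and with the replicate block (0.0426). Ift172 had -0.43 ± 0.12 (adjusted p = 0.0605, edgeR) and passed in DESeq2 (0.0176) and with the endothelial covariate (0.0457). Arl13b had 46.8, 45.9 and 48.9 CPM in PLD cells and 59.1, 56.6 and 44.9 CPM in WT cells, groups that overlapped. Without WT replicate 3 at 1 month, Kif3a passed as well, with 0.57 (adjusted p = 0.0323, edgeR), and 18.8% of all genes were called.

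**Figure D4:**
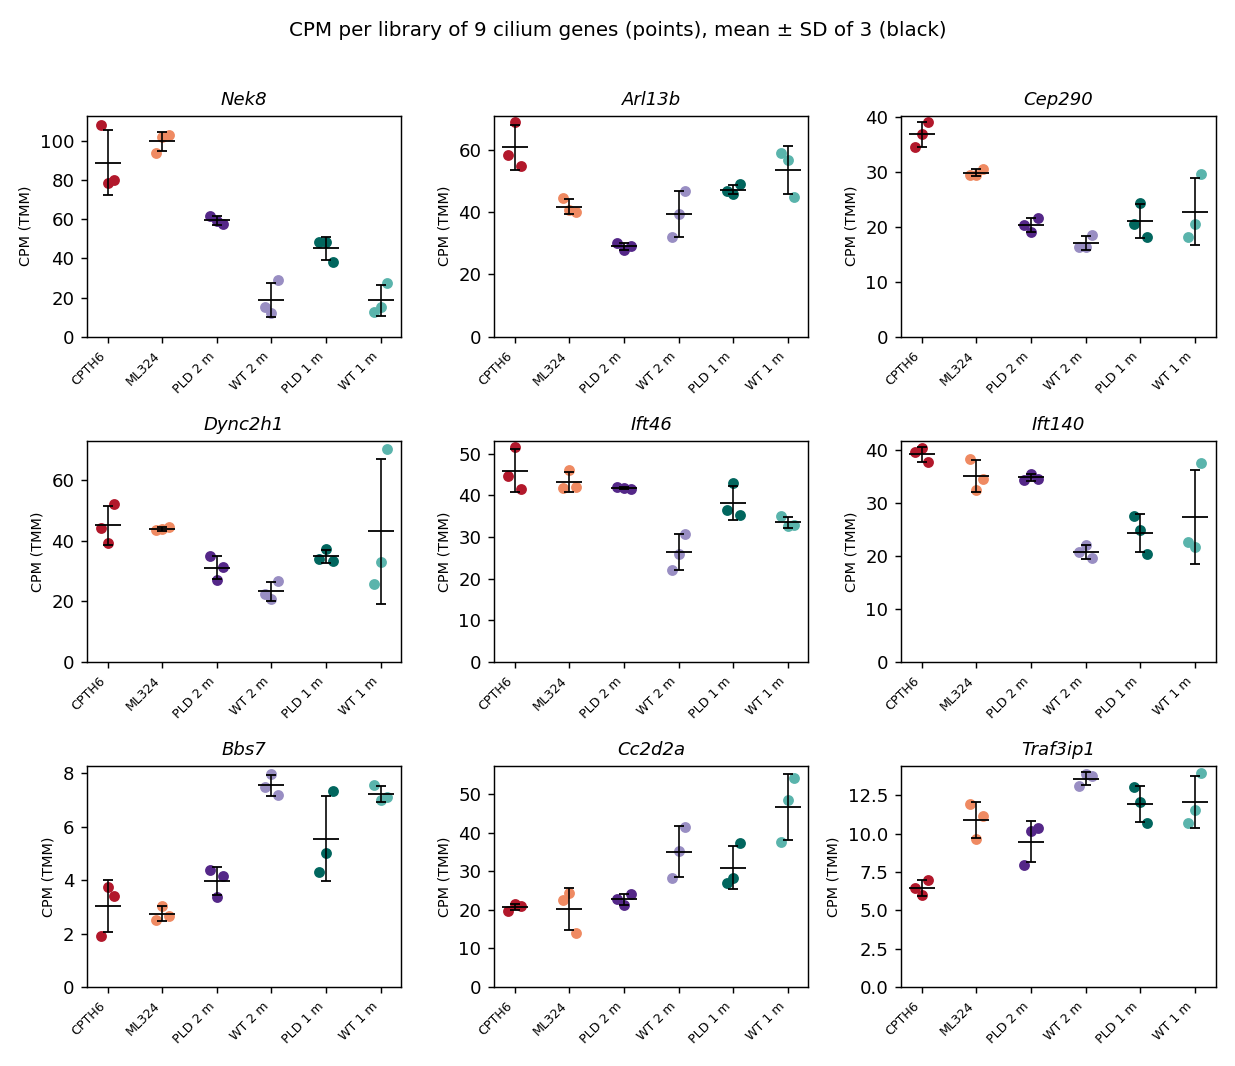
Each panel gives the TMM-scaled CPM of 1 member in the 18 libraries (points, 3 per group), with the mean and SD in black and the y axis starting at 0. Nek8 lies at 57.5 to 61.8 CPM in PLD and 12.4 to 28.9 CPM in WT at 2 months, and Arl13b is lowest in untreated PLD cells at 2 months.

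Whether the genotype difference itself changed between 1 and 2 months was tested as an interaction. No member passed in edgeR (0 of 46, against 5.68% of genes tested, 2.55% higher and 3.13% lower). An unadjusted p under 0.05 was found in 11 (23.9%), against 23.7% of genes tested. DESeq2 called 1, B9d2, beside 2070 of all genes, against 1008 in edgeR. The members nearest to the threshold were B9d2 (0.89 ± 0.26, adjusted p = 0.067), Ift140 (0.88 ± 0.28, adjusted p = 0.0966), Ift46 (0.44 ± 0.16, adjusted p = 0.136) and Ift57, an IFT-B subunit (0.59 ± 0.22, adjusted p = 0.144, all edgeR). At 1 month B9d2 had 7.44, 7.72 and 9.05 CPM in PLD cells and 10.2, 11.2 and 9.0 CPM in WT cells, which overlapped and lay the other way round from 2 months. Ift140 had 27.6, 24.9 and 20.5 CPM in PLD cells and 22.6, 21.8 and 37.6 CPM in WT cells at 1 month, with the highest value in WT replicate 3. Ift57 had 19.9, 18.5 and 24.7 CPM in PLD and 17.1, 15.8 and 18.9 CPM in WT at 2 months, and 18.4, 21.8 and 19.4 CPM in PLD and 23.9, 21.2 and 30.3 CPM in WT at 1 month. Both comparisons overlapped for this gene. Without WT replicate 3 at 1 month, B9d2 passed with 0.97 (adjusted p = 0.0455, edgeR). It also passed without WT replicate 1 at 2 months, and Ift140 passed without WT replicate 2 at 1 month. The share of all genes called in these fits was 7.63%, 3.99% and 7.54%, in the order given.

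Between 2 months and 1 month within PLD cells, Arl13b was the 1 member that changed (2.17%, against 9.61% of genes tested, 4.38% higher and 5.23% lower). It fell to 30.1, 27.8 and 29.2 CPM at 2 months, against 46.8, 45.9 and 48.9 CPM at 1 month. The time points lay wide apart, with a log2 fold change of -0.70 ± 0.13 (adjusted p = 0.0174, edgeR). The call was lost without PLD replicate 3 at 2 months and without PLD replicate 1 or 3 at 1 month, with adjusted p up to 0.0737. Over all fits that left out 1 library the log2 fold change was -0.73 to -0.67. Where the call was lost, 1.48%, 1.28% and 0.729% of all genes were called, in the same order. With the endothelial covariate Arl13b had -0.46 (adjusted p = 0.265, edgeR), and 1.56% of all genes were called. The marker mean behind that covariate also separated these groups, with 4.91 to 6.18 at 2 months and 6.93 to 7.95 at 1 month on the log2 CPM scale. Without WT replicate 3 at 1 month the count was 4, with Anks6, Mks1 and Ift140 higher at 2 months, and 20.3% of all genes were called.

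Within WT cells no member passed between 2 months and 1 month in edgeR (0 of 46, against 0.0507% of genes tested, 0.0113% higher and 0.0394% lower). An unadjusted p under 0.05 was found in 12 (26.1%), against 15.1% of genes tested. DESeq2 called 1, Ttc8, beside 642 of all genes, against 9 in edgeR. The sign was negative for 39 of the 46 members, with a median of -0.30 on the log2 scale. Over all genes tested 54.7% had a negative sign, with a median of -0.04. No test of the signs was made. WT replicate 3 at 1 month had the highest mean over all members of any library, 4.50 on the log2 CPM scale, against 3.96 and 4.07 in the other WT libraries at 1 month and 3.87 to 3.92 in WT at 2 months. Without this library 27 members had a negative sign, against 49.4% of all genes, and the median over the members was -0.08.

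Treated PLD cells were compared with untreated PLD cells of 2 months. Both compounds share these untreated libraries, and both treated groups are also 1 month later, so compound and time cannot be told apart. CPTH6 and ML324 each gave 5 called members. Arl13b, Cep290, Dync2h1 and Nek8 rose with either compound, Traf3ip1 fell with CPTH6 and Anks6 fell with ML324. The share of 10.9% compares with 23.1% of 16502 genes tested for CPTH6 and 19.4% for ML324. Higher calls were 9.39% of genes with CPTH6 and 7.96% with ML324, and lower calls 13.7% and 11.4%. The median over the members was 0.11 with CPTH6 and 0.02 with ML324 on the log2 scale, against -0.04 and -0.01 over all genes. The groups did not overlap in 15 members for CPTH6 (32.6%, against 42.5% of genes) and in 10 for ML324 (21.7%, against 37.8%).

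Arl13b showed the largest member change under CPTH6. It had 58.4, 68.9 and 54.9 CPM with CPTH6, against 30.1, 27.8 and 29.2 CPM in untreated PLD cells at 2 months. No treated library came near the untreated ones, and the difference was 1.01 ± 0.10 on the log2 scale or 2.02-fold (adjusted p = 0.000383, edgeR). With ML324 it had 44.5, 40.8 and 40.1 CPM, again above all untreated libraries, with 0.53 ± 0.10 (adjusted p = 0.00712, edgeR). Untreated PLD cells at 1 month, with 45.9 to 48.9 CPM, lay above the ML324 and below the CPTH6 libraries.

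Cep290 encodes a large transition zone protein that links the membrane to the microtubules. Of its exon bases, 7.58% overlap a gene on the opposite strand, and the counting without strand leaves out reads that touch both genes. Cep290 had 34.7, 37.0 and 39.2 CPM with CPTH6 and 29.5, 29.6 and 30.6 CPM with ML324, against 20.5, 19.1 and 21.7 CPM in untreated PLD cells at 2 months. Both treated groups lay above the untreated one, by 0.81 ± 0.09 with CPTH6 (adjusted p = 0.000726, edgeR) and 0.55 ± 0.09 with ML324 (adjusted p = 0.00448, edgeR). Between untreated PLD and WT this gene had not passed at either time, with 16.4, 16.4 and 18.6 CPM in WT at 2 months. Nek8, already higher in PLD than in WT, rose further, with 108, 78.5 and 80.1 CPM with CPTH6 and 93.9, 102 and 103 CPM with ML324, against 61.8, 58.9 and 57.5 CPM in untreated PLD cells. Every treated library was above every untreated one, and the log2 fold changes were 0.53 ± 0.13 with CPTH6 (adjusted p = 0.0167, edgeR) and 0.75 ± 0.13 with ML324 (adjusted p = 0.0049, edgeR).

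Dync2h1, the heavy chain of the inward motor, had 44.2, 39.2 and 52.1 CPM with CPTH6 and 43.4, 43.9 and 44.6 CPM with ML324, against 35.0, 27.1 and 31.4 CPM in untreated PLD cells at 2 months. The treated libraries lay above the untreated ones, by 0.49 ± 0.13 (adjusted p = 0.0242, edgeR) and 0.50 ± 0.13 (adjusted p = 0.0265, edgeR). Its light intermediate chain Dync2li1 had 0.07 ± 0.16 with CPTH6 and -0.02 ± 0.16 with ML324. Traf3ip1 fell to 6.45, 5.97 and 7.0 CPM with CPTH6, against 7.92, 10.2 and 10.3 CPM in untreated PLD cells. The groups did not overlap (-0.60 ± 0.17, adjusted p = 0.0306, edgeR). With ML324 the same gene had 11.9, 9.64 and 11.2 CPM, which overlapped the untreated values. Anks6 had 29.7, 31.1 and 31.0 CPM with CPTH6 and 20.1, 21.1 and 15.8 CPM with ML324, against 28.4, 23.5 and 27.2 CPM in untreated PLD cells. It fell with ML324 (-0.47 ± 0.13, adjusted p = 0.0305, edgeR) and did not pass with CPTH6 (0.16 ± 0.13, adjusted p = 0.385, edgeR).

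The remaining 41 members ranged from -0.44 to 0.34 with CPTH6 and from -0.56 to 0.35 with ML324, none past the test. Ift88, the IFT-B subunit altered in the classic mouse model of cystic kidneys, had 0.34 ± 0.12 and 0.35 ± 0.12. Bbs7 had 1.92, 3.75 and 3.40 CPM with CPTH6 and 2.51, 3.05 and 2.67 CPM with ML324, against 4.37, 3.38 and 4.15 CPM in untreated PLD cells. The CPTH6 libraries overlapped the untreated ones while the ML324 libraries did not, and neither difference passed. Arl13b and Cep290 passed with both compounds in all 9 fits that left out 1 library, as did Nek8 with ML324. Nek8 with CPTH6 missed without untreated PLD replicate 3 (adjusted p = 0.0608, edgeR). Dync2h1, Traf3ip1 and Anks6 missed in 4 or 5 of the 9 fits, with adjusted p up to 0.109. Traf3ip1 with CPTH6 and Anks6 with ML324 also missed without the filter on low counts and in a fit of only the compared groups. For CPTH6 the count was 3 without untreated PLD replicate 2 or without CPTH6 replicate 1 or 3, and 2 without untreated PLD replicate 3. For ML324 it was 3 without untreated PLD replicate 3 or without ML324 replicate 1 or 3, and 5 without ML324 replicate 2. In the fits where these counts fell to 2 or 3, the share of all genes called was 14.7% to 19.5% for CPTH6 and 11.4% to 13.4% for ML324. Cholangiocyte marker means were 9.60 ± 0.15 with CPTH6, 9.53 ± 0.02 with ML324 and 9.31 ± 0.05 in untreated PLD cells (SD, n = 3 each), and their part in these differences, like that of the lower fibroblast and endothelial markers, was not tested.

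**Figure D5:**
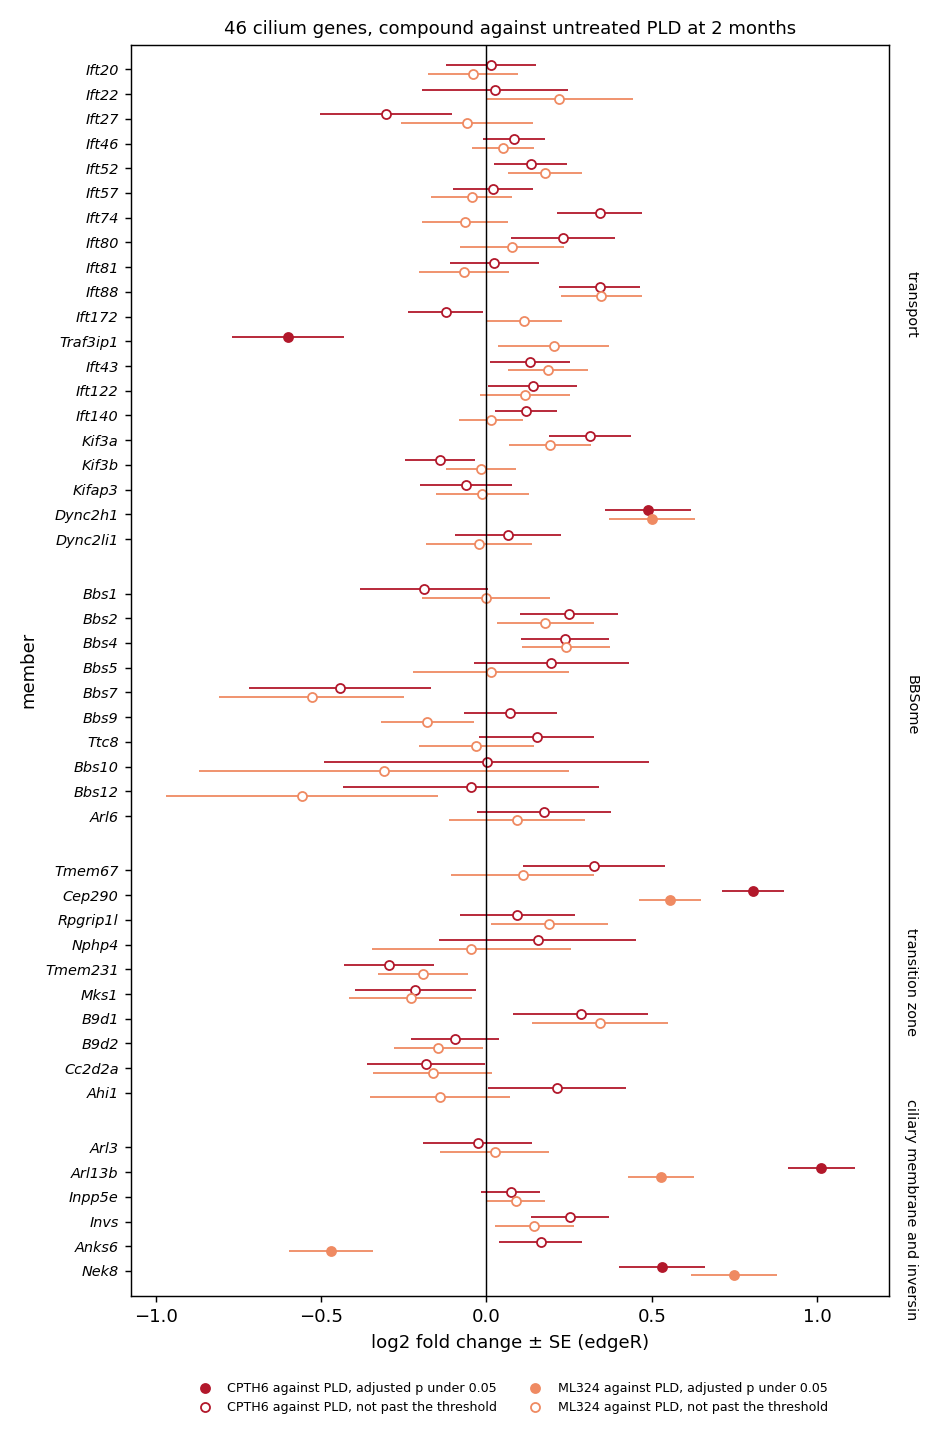
Points are log2 fold changes with SE bars for the 46 members, CPTH6 (upper point of each pair) and ML324 (lower point) over untreated PLD cells at 2 months, filled where the adjusted p is under 0.05. Arl13b, Cep290, Dync2h1 and Nek8 are filled to the right of 0 for both compounds, Traf3ip1 to the left for CPTH6 and Anks6 to the left for ML324.

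Set against each other directly, CPTH6 and ML324 differed in 0 of the 46 members in edgeR, and in 0% of the 15989 genes tested. An unadjusted p under 0.05 was found in 5 members (10.9%), against 12.6% of genes tested. DESeq2 called 3, Anks6, Traf3ip1 and Arl13b, beside 268 of all genes. The smallest p-values in edgeR belonged to Anks6 (0.63 ± 0.13), Traf3ip1 (-0.80 ± 0.17) and Arl13b (0.48 ± 0.11), each with an adjusted p of 0.235 and groups that did not overlap. Next came Ift74, with 19.7, 19.4 and 20.6 CPM under CPTH6 and 15.0, 12.2 and 16.2 CPM under ML324 (0.41 ± 0.14, adjusted p = 0.325, edgeR). Groups did not overlap in 8 members (17.4%), against 20.4% of genes tested.

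Other ciliary genes were counted in lists chosen by function. The counts at 2 months stand beside 19.7% of all genes tested that were higher in PLD and 20.3% that were lower. Between PLD and WT at 2 months, the other transport genes had 3 higher and 3 lower of 19 tested. Tulp3, which carries receptors into the cilium with IFT-A, averaged 24.8 CPM in PLD cells and 39.2 CPM in WT cells (-0.69 ± 0.12, adjusted p = 0.00145, edgeR), and Wdr34, a dynein intermediate chain gene, averaged 25.5 CPM in PLD cells and 10.02 CPM in WT cells (1.31 ± 0.31, adjusted p = 0.00735, edgeR). Of 22 further transition zone and appendage genes, 5 were higher and 2 lower, among them Tctn1 (0.93 ± 0.27) and Cep41 (-1.09 ± 0.23). Of 4 further BBSome genes, Rab3ip was higher (1.67 ± 0.31) and the chaperonin-like Mkks lower (-1.23 ± 0.29). The regulators of cilium assembly and disassembly had 8 higher and 1 lower of 21. Rfx2, one of the X-box factors, averaged 44.3 CPM in PLD cells and 18.3 CPM in WT cells at 2 months (1.24 ± 0.32, adjusted p = 0.0102, edgeR), and 50.5 CPM in PLD and 21.2 CPM in WT at 1 month (1.26 ± 0.31, adjusted p = 0.0456, edgeR). Glis2, a zinc finger gene of nephronophthisis, averaged 364 CPM in PLD cells and 98.7 CPM in WT cells at 2 months (1.85 ± 0.27, adjusted p = 0.000609, edgeR). Nde1, which restrains cilium length, was lower, with 21.2 CPM in PLD and 52.6 CPM in WT (-1.34 ± 0.18, adjusted p = 0.000322, edgeR), and it was the 1 gene of these lists that passed the interaction between times (-1.18 ± 0.25, adjusted p = 0.026, edgeR).

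The ciliary sensory and membrane genes split evenly at 2 months, 5 higher and 5 lower of 17. Pkd2, the polycystin channel gene, averaged 358 CPM in PLD cells and 229 CPM in WT cells (0.62 ± 0.12, adjusted p = 0.00232, edgeR). Pkd1, its partner receptor gene, averaged 197 CPM in PLD cells and 331 CPM in WT cells (-0.78 ± 0.21, adjusted p = 0.0142, edgeR). The labels do not name the gene inactivated in PLD mice, so whether it is in this list cannot be told. Adcy5, an adenylyl cyclase gene, had the largest change of the list, with 17.7 CPM in PLD cells and 110 CPM in WT cells (-2.66 ± 0.43, adjusted p = 0.000922, edgeR). At 1 month, when 3% of all genes were higher and 2.02% lower, the same list had 1 higher and 1 lower, Pkd2 (0.52 ± 0.12) and Adcy5 (-1.67 ± 0.41), and the regulators had 2 higher and 0 lower, while none of the further transport, BBSome and transition zone genes passed. In treated against untreated PLD cells the same list had 1 higher and 7 lower with CPTH6, and 1 higher and 5 lower with ML324, beside 9.39% of all genes higher and 13.7% lower with CPTH6, and 7.96% higher and 11.4% lower with ML324. The gene that rose was Pkhd1, which encodes fibrocystin, with 0.79 ± 0.17 under CPTH6 and 0.74 ± 0.17 under ML324. Pkd1 fell further, by 0.92 with CPTH6 and by 0.68 with ML324 on the log2 scale. Tulp3 fell with both compounds as well (-0.86 ± 0.15 with CPTH6 and -0.89 ± 0.15 with ML324), and Nde1 likewise (-0.85 ± 0.15 with CPTH6 and -0.97 ± 0.15 with ML324). The other transport genes had 3 higher and 1 lower of 19 with CPTH6, and 1 higher and 1 lower with ML324. The further transition zone and appendage genes had 3 higher and 1 lower of 22 with CPTH6, and 3 higher and 0 lower with ML324. Bbip1, a small BBSome subunit gene, rose with both compounds (0.50 with CPTH6 and 0.45 with ML324 on the log2 scale).

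The half-site of the X-box was found among members of either direction. It lay in the promoters of 3 of the 7 members that rose in PLD cells at 2 months (B9d2, Ift140 and Kif3a), in 4 of the 6 that fell (Arl13b, Bbs7, Ift172 and Traf3ip1) and in 11 of the 27 others with a promoter entry.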

How the data were processed

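PolyA RNA of 18 cholangiocyte libraries in 6 groups of 3 was analysed, grouped by the titles and genotype labels. The authors deposited raw counts per gene, made with featureCounts 1.6.0 for paired reads without strand on mm10 with GENCODE M25, per the file headers; such counting leaves out reads that touch the exons of more than 1 gene. The submitters' processing notes also name STAR 2.7.4a, SAMtools 1.12 and DESeq2 1.26.0. Symbols were matched for 55141 of 55401 genes, and 227 of 230 listed symbols were found. Inpp5e shared 20.3% of its exon bases with an opposite-strand gene, and 8 other members shared up to 7.86%.

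The counts were tested with edgeR 4.0.16 (R 4.3.3): filterByExpr, TMM factors, quasi-likelihood fits and Benjamini-Hochberg adjustment over all genes tested, with a threshold of 0.05. The 12 untreated libraries were fitted together (17749 genes), the 9 treated and untreated PLD libraries at 2 months and later together (16502 genes), and the 6 treated libraries together (15989 genes). CPM values use TMM factors over all libraries, and log2 CPM a prior count of 2. CPM per kb divides by the counted exon length. Of 153 pairs of libraries, 0 held identical counts.

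Alternatives were DESeq2 1.42.0, no filter, only the compared groups, a replicate block, endothelial markers as a covariate, other scaling and leaving out each library. Values per library were given for up to 3 called members per class with the smallest adjusted p at 2 months, the 4 with the smallest p in the interaction and in each compound comparison, and the highest and lowest per kb; other ciliary lists were named by the smallest adjusted p, and the marker lists were given as ranges. Further members and list genes were named after their values were seen. The members and lists were chosen with earlier results of these data known.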

Additional observations from a re-analysis of the deposited data

How the results depend on the processing

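No pairing by the replicate numbers in the titles was found: in 0 comparisons did all 3 same-numbered pairs correlate above 0.1 in their deviations from the group means (-0.31 to 0.30 over all pairs). With groups of 3 this check cannot exclude a pairing. A replicate block gave 2 called members for PLD against WT at 1 month, in place of 1, and 13 at 2 months. Over all genes it called 599 and 6483, against 892 and 7091 in the main fit. The block changed no other count of members called. For PLD against WT at 1 month, DESeq2 called 4, the fit of only the compared groups 0 and the endothelial covariate 2. A reduced fit that dropped 2 WT libraries (number 3 of 1 month, number 1 of 2 months), chosen after seeing the data, called 2. All genes called numbered 2157, 29, 2107 and 3541 in that order, against 892 in the main fit. At 2 months the covariate, which separated PLD from WT fully at that time, gave 0 in place of 13. Under it Ift74 had -0.0691, Kif3a -0.28 and Ift140 -0.0043 on the log2 scale. For the same comparison DESeq2 gave 13, no filter 9, the compared groups 14 and the reduced fit 18. Over all genes these called 7698, 6642, 7359 and 7725, against 7091 in the main fit and 267 with the covariate. For 2 months against 1 month in PLD, the compared groups gave 4, the covariate 0 and the reduced fit 5, in place of 1. All genes called were 3811, 276 and 3861, in place of 1706. In WT, DESeq2 gave 1 and no filter 2, in place of 0, with 642 and 1224 of all genes called, in place of 9. For the interaction, DESeq2 gave 1 and the reduced fit 1, in place of 0, with 2070 and 1375 of all genes, in place of 1008. Between the compounds, DESeq2 gave 3 and no filter 2, in place of 0, with 268 and 232 of all genes, in place of 0. The cause of these shifts was not tested. Leaving out 1 library gave 0 to 2 called members for PLD against WT at 1 month, 7 to 20 at 2 months, 0 to 4 for time in PLD, 0 in WT, 0 to 1 for the interaction, 2 to 6 for CPTH6, 3 to 5 for ML324 and 0 between the compounds. The share of all genes called was 0.535% to 18.8% at 1 month, 28.9% to 46.6% at 2 months and 0.729% to 20.3% for time in PLD. It was 0% to 2.1% in WT, 0.543% to 7.63% for the interaction and 0% to 0.0176% between the compounds. For CPTH6 it was 14.7% to 23.5%, and for ML324 11.4% to 18.2%. Other scaling moved the median of all genes by less than 0.1. Bbs10 and Bbs12 had under 1 CPM in some libraries, and the part of depth in their calls was not tested.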

Other observations

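Cholangiocytes carry no motile cilia, and of the 16 matched genes of motile cilia 15 stayed at or below 20.8 CPM in every library (Dnah5 the highest of them), while Tppp3 reached 168 CPM. In the untreated libraries 13 passed the filter on low counts. At 2 months 5 of these were lower in PLD cells and 0 higher (edgeR, adjusted p under 0.05), beside 20.3% of all genes lower and 19.7% higher. Dnah5, an axonemal dynein gene, averaged 0.900 CPM in PLD cells and 5.95 CPM in WT cells (-2.74 ± 0.78, adjusted p = 0.017, edgeR), and Cfap44 averaged 0.336 CPM in PLD cells and 2.74 CPM in WT cells (-3.06 ± 0.79, adjusted p = 0.0111, edgeR). At 1 month 3 were lower in PLD cells and 0 higher, beside 2.02% of all genes lower and 3% higher, with Cfap44 at 0.522 CPM in PLD cells and 6.13 CPM in WT cells (-3.53 ± 0.75, adjusted p = 0.0281, edgeR). The 12 mitosis genes summed to 90.0 to 177 CPM in PLD cells and 15.9 to 42.2 CPM in WT cells at 2 months, and to 135 to 224 CPM in PLD cells and 41.4 to 103 CPM in WT cells at 1 month.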
